A study of Mus musculus with 4 samples.

Results

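The transcription factors that set and maintain macrophage identity were followed in mouse peritoneal macrophages. The cells were cultured overnight either with the cytokine TGFb2 (transforming growth factor beta 2) or with PBS. The 9 genes are Spi1 (which encodes PU.1), Cebpa, Cebpb, Cebpd, Maf, Irf8, Klf4, Pparg and Mef2c. They were taken by exact gene symbol from the array's probe-to-gene table, which holds 13 of their probe sets among the 12488 on the array. The table names 8252 different genes. A probe set is a group of short probes read out as 1 signal. The cells came from female BALB/c mice aged 6 to 8 weeks and were drawn into the peritoneal cavity by 2 ml of 3% thioglycolate given 4 days earlier. The PBS group and the TGFb2 group held 2 arrays each and shared the serum-free medium with its transferrin, linoleic acid, selenium and iron supplement. The TGFb2 was porcine, at 5 ng with no volume stated in the labels. RNA came from the adherent fraction, which the labels put at more than 95% positive for the macrophage antigen F4/80. Whether replicates 1 and 2 of a group were separate cultures or animals is not stated, so the p-values reflect only how far these arrays scattered, and that scatter may be technical.

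PU.1 is an ETS-family factor that opens macrophage enhancers and activates the genes of growth factor receptors and integrins. It acts with C/EBP factors, bZIP proteins that drive myeloid differentiation and acute-phase genes, and with IRF8, an interferon regulatory factor that favours monocytes and macrophages over granulocytes. The large MAF proteins restrain self-renewal of macrophages, KLF4 is a zinc-finger factor of monocyte differentiation, PPAR gamma is a lipid-activated nuclear receptor, and MEF2C is a MADS-box factor that biases progenitors towards monocytes.

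Arrays were alike in overall level and none stood apart. The median signal ran from 40.1 to 45.6, and pairs of arrays correlated at 0.953 to 0.978 (Pearson, log2 scale, across probe sets). All 10 macrophage markers examined lay above the level filter (a mean signal of 25.1, the 40th percentile). None of the 10 passed in limma, but 6 were higher with TGFb2 at an unadjusted p under 0.05 (Cd68, Csf1r, Itgam, Fcgr1, Mertk and Msr1, log2 differences from 0.23 to 1.13) and 0 were lower, with a median log2 difference of 0.38. Of all tested genes, each read from its brightest tested probe set, 6.05% were higher and 6.10% lower at that level. The part of these marker differences in the results below was not tested. The F4/80 gene Adgre1 had signals of 488.1 and 779.9 with PBS and 470.9 and 747.7 with TGFb2, and the groups overlapped. The lysosomal glycoprotein gene Cd68 had 6377.8 and 5851.0 with PBS and 7363.0 and 6991.3 with TGFb2.

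No member of the set passed the test between treatments. Of 9 tested probe sets, 1 for each gene, 0 had an adjusted p under 0.05 in limma, the linear model fitted across all 7453 tested probe sets. Over all tested probe sets 87 passed, which is 1.17%, with 0.805% higher and 0.362% lower with TGFb2. That total fell to 50 when PBS replicate 1 was left out, to 35 for PBS replicate 2, to 11 for TGFb2 replicate 1 and to 25 for TGFb2 replicate 2. No member passed in any of these 4 fits. At an unadjusted p under 0.05 there were 4 of the 9, namely Cebpa, Mef2c and Irf8, which were higher, and Pparg, which was lower. Mef2c was tested only through its TGFb2 arrays, since both PBS signals lay below the filter, and without it the count is 3 of 8. The background at that level was 11.7% of tested probe sets, 5.74% higher and 5.94% lower. The same 4 were the ones whose PBS and TGFb2 arrays did not overlap. Groups without overlap made up 42.9% of all tested probe sets (21.1% higher and 21.8% lower), so the share of members without overlap lay near the background. The remaining 4 probe sets, 3 of Mef2c and 1 of Klf4, lay below the level filter and were not tested.

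**Figure D1:**
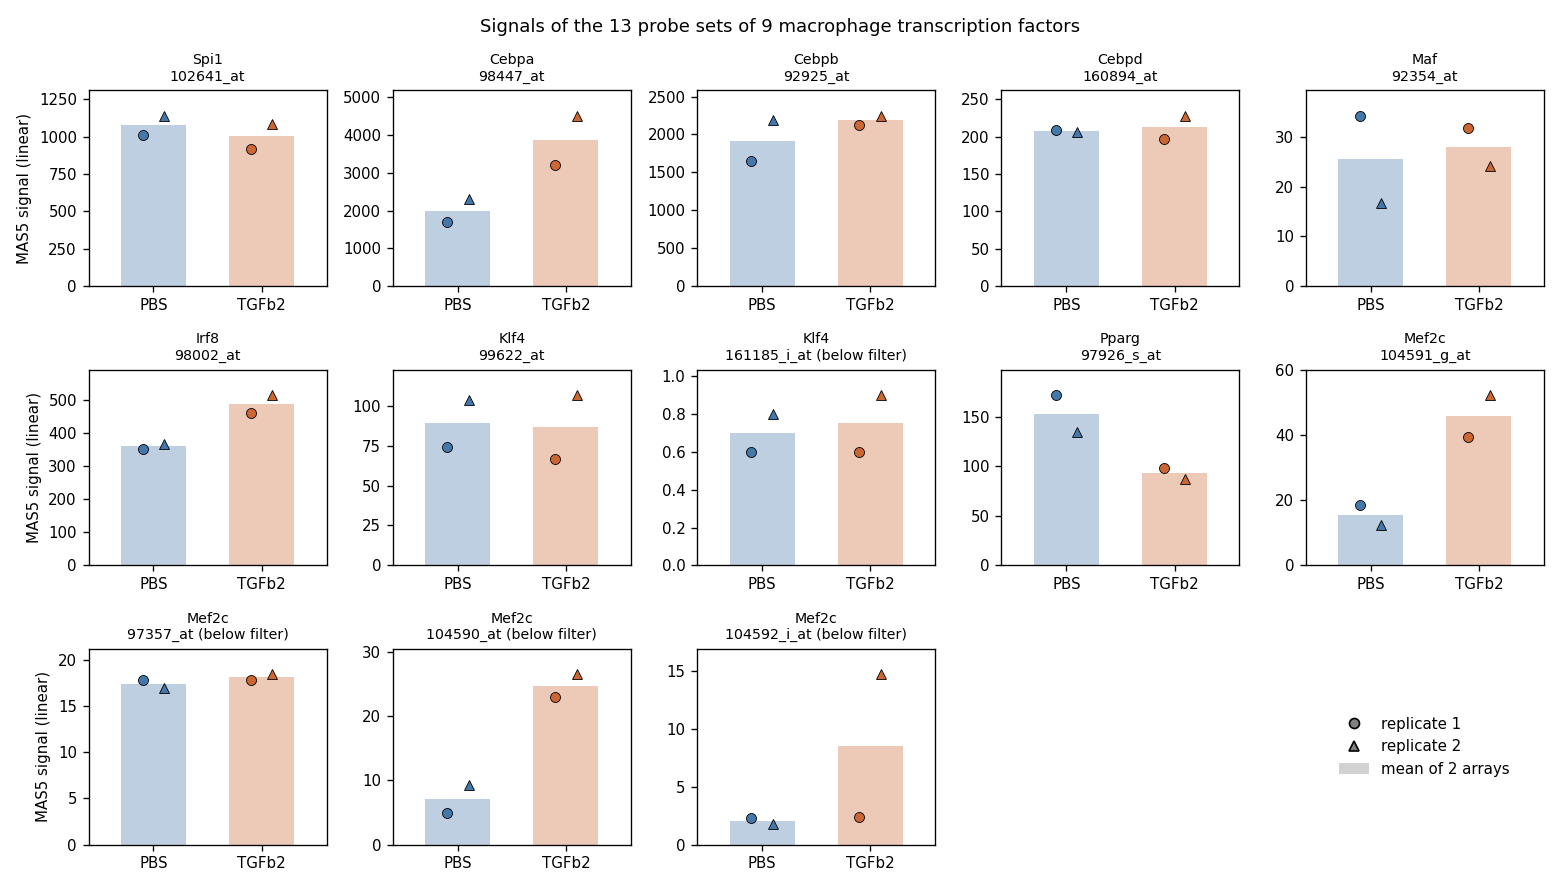
MAS5 signal (linear scale, each panel from 0) of each of the 13 probe sets; bars are means of 2 arrays, circles replicate 1 and triangles replicate 2, PBS in blue and TGFb2 in orange. The TGFb2 arrays lie above both PBS arrays for Cebpa, Irf8 and 3 Mef2c probe sets and below them for Pparg.

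Spi1 was present at similar signals in both treatments. Its signals were 1013.3 and 1139.5 with PBS and 919.6 and 1084.8 with TGFb2, so the groups overlapped. The log2 difference, TGFb2 minus PBS, was -0.10 ± 0.15 (SE) and did not pass (limma adjusted p = 0.85). Its 95% interval ran from -0.46 to 0.25, which corresponds to 0.727 to 1.19 times the PBS level. Changes within that interval were not resolved by 2 arrays per group.

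The C/EBP members did not give a common pattern. Cebpa, which encodes C/EBP alpha and is needed for the earliest commitment to the myeloid lineage, had signals of 1686.7 and 2302.6 with PBS and 3217.5 and 4502.5 with TGFb2. Both TGFb2 arrays lay above both PBS arrays, and replicate 2 was the higher array of each group. The means were 1995 ± 436 and 3860 ± 909 (SD, n = 2 arrays per group), a ratio of 1.94. The log2 difference was 0.94 ± 0.20 (SE) and did not pass (limma adjusted p = 0.088). Its 95% interval, 0.47 to 1.41, corresponds to 1.39 to 2.67 times the PBS level. Of the member probe sets it had the smallest unadjusted p, 0.00183, and ranked 154 of 7453. Without any 1 array the difference ran from 0.70 to 1.19. Its sign could not change in those fits, since the groups did not overlap. As in any bulk RNA, a change in the share of cells that express the gene and a change in RNA per cell cannot be told apart.

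Cebpb, which encodes the C/EBP factor of inflammatory and alternative activation genes, had signals of 1644.3 and 2193.9 with PBS and 2126.0 and 2244.3 with TGFb2. The groups overlapped, with PBS replicate 1 the lowest array. The difference was 0.20 ± 0.16 on the log2 scale (SE, limma adjusted p = 0.70), with an interval from -0.17 to 0.57. Without PBS replicate 1 it was -0.01. Cebpd, an acute-phase member of the family, had signals of 208.9 and 206.4 with PBS and 196.9 and 227.8 with TGFb2. The PBS values lay between the TGFb2 values, and the log2 difference was 0.03 ± 0.17 (adjusted p = 0.98), with an interval from -0.37 to 0.43.

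The promoter of Cebpa is shown because this gene had the smallest p among the members, and the first promoter of Irf8 because its groups also lay apart. RefSeq windows of the GRCm38.p6 assembly, 250 bases before to 50 bases from each transcription start, were found for 6 of the 9 genes, 11 windows in all. Each line below gives the 250 bases before the start, 5′ to 3′, with the letters TATAAA in capitals.
Cebpa, chr7:35119043-35119292, plus strand: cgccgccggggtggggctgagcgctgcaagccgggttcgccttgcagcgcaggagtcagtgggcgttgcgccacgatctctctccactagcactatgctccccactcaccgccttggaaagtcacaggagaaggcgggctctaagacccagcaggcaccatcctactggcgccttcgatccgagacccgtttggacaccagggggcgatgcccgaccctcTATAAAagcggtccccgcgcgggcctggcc
Irf8, start site 1, chr8:120736108-120736357, plus strand: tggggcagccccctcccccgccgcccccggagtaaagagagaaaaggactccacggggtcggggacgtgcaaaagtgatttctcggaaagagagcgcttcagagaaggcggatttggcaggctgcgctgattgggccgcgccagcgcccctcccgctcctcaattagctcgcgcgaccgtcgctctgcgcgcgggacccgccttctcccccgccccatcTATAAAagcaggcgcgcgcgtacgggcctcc
The letters TATAAA begin 30 bases before the Cebpa start and 31 bases before this Irf8 start, where a TATA box would lie. Anywhere in the window, on either strand, they were found in 6 of the 11 member windows and in 13.6% of all 32851 windows. These counts are not limited to the TATA box position. The Cebpb match lay after the start, at bases 22 to 27, and that of Mef2c start site 1 began 107 bases before it. Pparg and Mef2c have 3 windows each, so the 11 are not independent. Letters searched for PU.1 (GAGGAAGT), C/EBP (TTGCNNCAA), IRF (GAAANNGAA), the large MAF proteins (TGCTGAC), KLF factors (GGGTGTGGC), MEF2 (CTATTTATA and CTAAAAATA) and the palindromic Smad site (GTCTAGAC) were in none of the 11 windows. Of all windows, 3.20% held the PU.1 letters, 2.08% those of C/EBP, 8.56% those of IRF, 4.67% those of MAF, 1.35% those of KLF, 0.429% and 0.517% those of MEF2 and 0.213% the Smad palindrome, each counted on both strands. These are matches of letters only, and enhancers lie outside the windows.

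Irf8 was higher on both TGFb2 arrays. Its signals were 351.5 and 367.0 with PBS and 460.1 and 514.4 with TGFb2, with means of 359 ± 11.0 and 487 ± 38.4 (SD, n = 2) and no overlap. The ratio of means was 1.36. The log2 difference was 0.42 ± 0.16 (SE) and did not pass (limma adjusted p = 0.36), with an interval from 0.05 to 0.79. Under 12 alternative settings it ran from 0.34 to 0.50. Groups without overlap fix the sign in most of these settings.

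Maf, which encodes c-MAF, was dim and did not separate the groups. It had signals of 34.2 and 16.7 with PBS and 31.7 and 24.2 with TGFb2, and both TGFb2 values lay between the PBS values. On the log2 scale Maf differed by 0.12 ± 0.33 (SE, limma adjusted p = 0.93), with an interval from -0.65 to 0.88 that holds changes of 0.638 to 1.84 times. The mean over the 4 arrays, 26.7, was just above the filter, so this probe set carries little information on Maf.

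Klf4 also showed no separation. Its brighter probe set, 99622_at, had signals of 74.5 and 103.5 with PBS and 66.6 and 106.8 with TGFb2, so both groups had a lower replicate 1 and a higher replicate 2. On the log2 scale it differed by -0.05 ± 0.26 (SE, limma adjusted p = 0.97), with an interval from -0.64 to 0.55. The other Klf4 probe set, 161185_i_at, had signals between 0.6 and 0.9 on all 4 arrays and could show no difference.

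Pparg was the member that was lower with TGFb2. It had signals of 172.1 and 134.4 with PBS and 98.1 and 87.8 with TGFb2, with means of 153 ± 26.7 and 92.95 ± 7.28 (SD, n = 2), and the groups did not overlap. The ratio of means was 0.607. The log2 difference was -0.63 ± 0.19 (SE) and did not pass (limma adjusted p = 0.23), with an interval from -1.09 to -0.18. Under 12 alternative settings it lay between -0.80 and -0.47. Groups without overlap fix the sign in most of these settings. Its only probe set, 97926_s_at, carries the suffix of sets whose probes can match related transcripts, and it does not separate the products of the gene's start sites.

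Pparg has windows at 3 start sites, and stretches of each are shown because this was the member with lower signals. The lines give the bases just before each start, 5′ to 3′, with AGGTCA (the core letters bound by many nuclear receptors), TATAAA and the Smad letters CAGACA, on either strand, in capitals.
Pparg, start site 1, chr6:115361084-115361143, plus strand: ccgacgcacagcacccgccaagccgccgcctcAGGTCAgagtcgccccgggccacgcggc
Pparg, start site 2, chr6:115362289-115362348, plus strand: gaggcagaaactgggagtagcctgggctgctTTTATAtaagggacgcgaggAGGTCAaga
Pparg, start site 3, chr6:115421816-115422065, plus strand: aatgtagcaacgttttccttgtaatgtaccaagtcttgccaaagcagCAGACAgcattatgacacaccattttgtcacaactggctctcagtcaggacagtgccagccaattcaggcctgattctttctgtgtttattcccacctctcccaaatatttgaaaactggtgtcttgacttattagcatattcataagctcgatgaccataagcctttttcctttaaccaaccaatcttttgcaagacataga
AGGTCA began 28 bases before start site 1 and 9 bases before start site 2. At start site 2 the reverse complement of TATAAA, which reads TTTATA, began 29 bases before the start. CAGACA began 203 bases before start site 3. AGGTCA was found in 4 of the 11 member windows and in 16.3% of all windows, and CAGACA in 2 of 11 and in 21.0% of all windows.

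Mef2c was dim in all 4 of its probe sets, and 3 of them were higher on both TGFb2 arrays. The brightest, 104591_g_at, had signals of 18.7 and 12.4 with PBS and 39.6 and 52.4 with TGFb2. It passed the level filter only through its TGFb2 arrays, since both PBS signals lay below the filter level, so its difference is a description of a set that had to be higher there to be tested. It differed by 1.00 ± 0.29 log2 units (SE, limma adjusted p = 0.22), with an interval from 0.32 to 1.68. Its size depended on the pseudocount, a constant of 15.0 added before taking logs, and it was 1.58 with none and 0.49 with 4 times as much.

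Below the filter, 104590_at had signals of 4.9 and 9.3 with PBS and 22.9 and 26.5 with TGFb2, higher on both TGFb2 arrays. In the fit without a filter its log2 difference was 0.85 ± 0.23 (SE, limma adjusted p = 0.32). The table gives 104590_at and 104591_g_at the same source sequence, so they are not independent readings of Mef2c. The set 104592_i_at had signals of 2.3 and 1.8 with PBS and 2.4 and 14.7 with TGFb2, so TGFb2 replicate 1 lay only 0.1 above the higher PBS array. The set 97357_at, made from another sequence, had signals of 17.8 and 16.9 with PBS and 17.8 and 18.4 with TGFb2, with no separation. The Mef2c probe sets therefore disagreed.

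**Figure D2:**
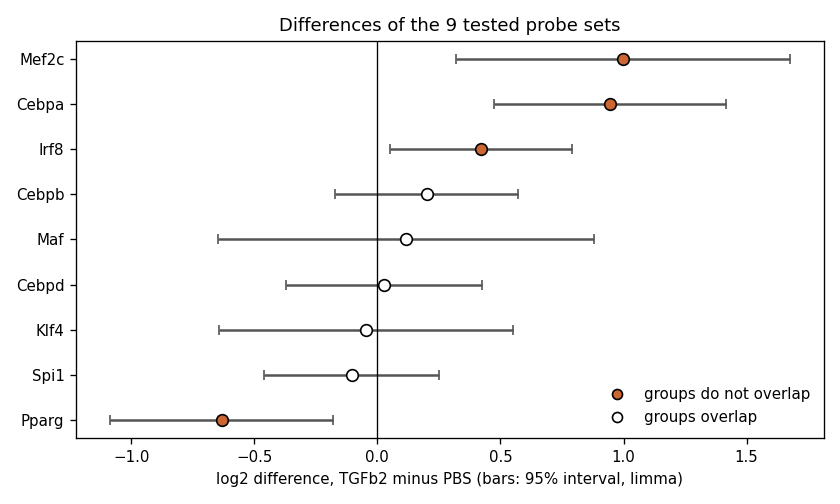
Log2 difference (TGFb2 minus PBS, x axis) of the 9 tested probe sets, with 95% intervals from limma; filled points mark groups that do not overlap. The points run from -0.63 for Pparg to 1.00 for Mef2c, and the intervals of Spi1, Cebpb, Cebpd, Maf and Klf4 include 0.

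Among all other named genes, those closest in pattern to the 2 members with the largest differences were found by the root mean square distance between log2 values centred on each gene's mean, over 4 arrays and 5634 genes. Nearest to Cebpa were Apoa5 (0.055), a lipoprotein component, Tmbim1 (0.062) and the adhesion receptor gene Adgrg3 (0.093). Apoa5 was dim, with 11.2 and 18.1 with PBS and 31.9 and 47.7 with TGFb2. It passed the level filter only through its TGFb2 arrays. Adgrg3 was also dim, with 19.2 and 31.7 with PBS and 55.6 and 67.2 with TGFb2. Nearest to Mef2c were Gatm (0.123), an enzyme of creatine synthesis, Man2b1 (0.128), a lysosomal mannosidase, and Fam98a (0.128). The distances rest on 4 arrays and are descriptive.

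No close relative of the members passed either. Of 63 tested transcription factors on 9 lists (ETS, C/EBP and bZIP partners, MAF, IRF, KLF, nuclear receptors, MEF2 with class II deacetylases, other myeloid regulators and factors of other blood lineages), 0 passed in limma. At an unadjusted p under 0.05, 4 were higher and 3 lower. Over all 5635 tested genes, each read from its brightest tested probe set, 1.19% passed (0.870% higher, 0.319% lower), and 12.2% had an unadjusted p under 0.05. The median log2 difference was -0.02 for these factors, 0.12 for the members and 0.00 for all genes.

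The factor nearest the threshold was Id2, an inhibitor of helix-loop-helix factors that shapes dendritic cell and lymphoid fates. It had signals of 1824.3 and 2108.9 with PBS and 3499.3 and 3066.8 with TGFb2, a log2 difference of 0.74 ± 0.13 (SE, limma adjusted p = 0.055). Both TGFb2 arrays were higher. Among close relatives of the members, Cebpg, a C/EBP protein that pairs with other bZIP factors, had 156.6 and 188.4 with PBS and 297.1 and 258.3 with TGFb2 (adjusted p = 0.20). Klf10, a TGF-beta-inducible KLF gene in other cells, had 263.3 and 273.8 with PBS and 414.0 and 437.6 with TGFb2 (adjusted p = 0.14), and its other probe set differed by a similar 0.63. Irf5, an inflammatory IRF gene, was lower, with 748.4 and 703.5 against 438.6 and 521.7 (adjusted p = 0.18). In each of these 4 genes the groups did not overlap, as in 44.4% of the 63 factors and 43.9% of all tested genes.

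In the other factor lists the largest differences were small or dim. They were 0.59 for the ETS gene Elk3, 0.36 for Nfe2, a bZIP partner of small MAF proteins, 0.37 for Mef2a and -0.39 for Gata2, a factor of mast cells and progenitors. Among nuclear receptors the largest was -0.46, for the vitamin D receptor gene Vdr. All 5 missed the threshold, with limma adjusted p from 0.44 to 0.71. The PPAR gamma partner Rxra had signals of 184.4 and 140.4 with PBS and 108.9 and 240.8 with TGFb2. It differed by 0.02 ± 0.33 (SE), with an interval from -0.75 to 0.78, so changes within that interval were not resolved. The liver X receptor gene Nr1h3 differed by 0.04 ± 0.19.

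Receptors and signal transducers upstream of the members gave 0 of 18 past the threshold in limma. At an unadjusted p under 0.05, 4 were higher and 1 lower, against 6.05% and 6.10% of all tested genes. The median log2 difference of the 18 was -0.12. Il4ra, the interleukin 4 receptor chain that acts through STAT6, had signals of 72.5 and 61.9 with PBS and 150.5 and 132.1 with TGFb2 (log2 difference 0.93 ± 0.19 SE, adjusted p = 0.074). A dimmer Il4ra probe set, with a mean signal of 25.95 just above the filter, differed by 0.02 (limma adjusted p = 0.99). Its interval ran from -0.66 to 0.69, so at that level it carries little information on Il4ra.

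Among genes known to be controlled by the members, 4 passed. Of 47 tested target genes, 3 rose, 1 fell and 43 did not pass in limma, with a median log2 difference of 0.09. The share past the threshold was 8.51%, against 1.19% of all tested genes, and 34.04% had an unadjusted p under 0.05 (11 higher, 5 lower), against 12.2%. The lists were chosen with earlier results known, so these shares are descriptions. The 3 that rose are the chains of C1q, the recognition unit of the classical complement pathway, which stand on the list of large MAF targets. C1qa had signals of 163.0 and 171.0 with PBS and 532.3 and 404.3 with TGFb2 (log2 difference 1.40 ± 0.19 SE, limma adjusted p = 0.024). C1qb had 68.6 and 57.5 with PBS and 262.4 and 205.1 with TGFb2 (1.67 ± 0.20, adjusted p = 0.019). C1qc had 287.7 and 251.8 with PBS and 691.5 and 529.2 with TGFb2 (1.13 ± 0.19, adjusted p = 0.044). All 3 were higher on both TGFb2 arrays, while another C1qb probe set differed by -0.24 (adjusted p = 0.77).

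Without 1 array the C1q calls were partly lost. Without TGFb2 replicate 1 the adjusted p was 0.0996 for C1qa and 0.091 for C1qb. C1qa also missed the threshold without PBS replicate 1 (0.054) or PBS replicate 2 (0.057). C1qc missed it without PBS replicate 1 (0.077), PBS replicate 2 (0.14), TGFb2 replicate 1 (0.16) or TGFb2 replicate 2 (0.075). The tested large MAF targets numbered 4, and the other was the mannose receptor gene Mrc1, whose log2 difference was -0.47. These genes were known to be higher here when the list was written, and Maf itself, given above, had overlapping groups.

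Among 10 tested targets of PPAR gamma, 0 rose, 1 fell and 9 did not pass, with a median log2 difference of 0.03. The target that fell was Cd36, a scavenger receptor for oxidised lipids. Its signals were 234.4 and 207.2 with PBS and 93.2 and 96.3 with TGFb2 (log2 difference -1.10 ± 0.17 SE, limma adjusted p = 0.038). The call was lost without PBS replicate 1 (adjusted p = 0.19), PBS replicate 2 (0.12), TGFb2 replicate 1 (0.14) or TGFb2 replicate 2 (0.091). Other lipid genes of the list did not share one direction. Lpl, lipoprotein lipase, differed by -0.74 and Acadl, an enzyme of fatty acid oxidation, by -0.84, while Cpt1a, which admits fatty acids to mitochondria, differed by 0.45. Their limma adjusted p lay between 0.16 and 0.33. Pdk4, Olr1 and Cidec, also on the list, lay below the filter and were not tested. Olr1 had signals of 7.7 and 1.3 with PBS and 44.6 and 43.1 with TGFb2, with a mean of 24.2. The Pdk4 groups overlapped, and Cidec had at most 3.6 on any array.

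Targets of the other members did not pass in limma. For PU.1 targets this held for 19 of 19, with 5 higher and 0 lower at an unadjusted p under 0.05 and a median log2 difference of 0.09. Of all tested genes 6.05% were higher and 6.10% lower at that level. Several PU.1 targets are also among the macrophage markers given above. The largest difference was that of Fcgr1, the high-affinity IgG receptor, at 177.6 and 161.5 with PBS and 480.4 and 315.8 with TGFb2 (limma adjusted p = 0.067). Fcgr1 also led the 8 IRF8 targets, whose median was 0.14. Of 11 C/EBP targets the acute-phase haptoglobin gene Hp differed most, at 219.6 and 562.4 with PBS and 629.5 and 1418.7 with TGFb2 (log2 difference 1.39 ± 0.47 SE, adjusted p = 0.29). Each Hp replicate 2 was above its replicate 1, so the spread within groups was wide. The arginine-degrading enzyme gene Arg1, listed for C/EBP and KLF4, had 287.1 and 427.9 with PBS and 1034.3 and 711.5 with TGFb2 (adjusted p = 0.067). The single tested MEF2 target, Jun, differed by 0.16 (adjusted p = 0.79).

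**Figure D3:**
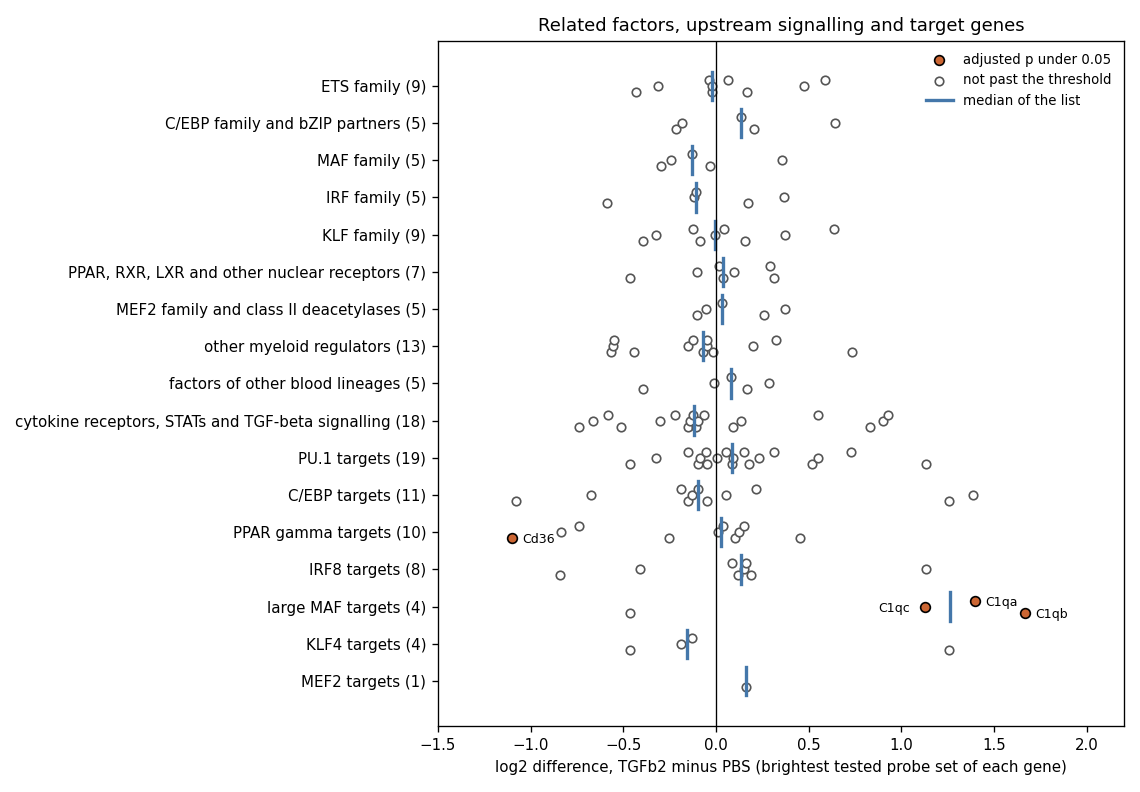
Log2 difference (TGFb2 minus PBS, x axis) of every tested gene on the lists of related factors, upstream signalling and targets, with the number of genes in brackets; blue bars are list medians and filled points passed an adjusted p of 0.05. The factor lists centre near 0 with no filled point, and the 4 filled points are Cd36, C1qa, C1qb and C1qc.

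Several members are also expressed outside macrophages, so markers of other cells were read on the same arrays. Summed signals of the 8 neutrophil markers were 394.8 and 442.0 with PBS and 872.1 and 894.2 with TGFb2. Most of this difference lay in S100a8, a calgranulin, which rose from 128.7 and 210.9 to 550.6 and 679.2 (limma adjusted p = 0.024, 0.097 without TGFb2 replicate 1 and 0.094 without TGFb2 replicate 2). The other tested markers, the granule genes Camp, Elane and Lcn2, differed by 0.30, 0.06 and -0.05 log2 units. None of them passed in limma (adjusted p from 0.62 to 0.97). S100a9, Ngp, Ltf and Mpo lay below the filter. The part of neutrophils in the Cebpa difference was not tested.

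Markers of fibroblasts and mesothelium summed to 2337.2 and 1685.0 with PBS and 1774.6 and 1562.8 with TGFb2, and the groups overlapped. Of the 12, Col1a1 rose (143 to 372, adjusted p = 0.022) and Dcn fell (adjusted p = 0.027) in limma. Another Col1a1 probe set of similar brightness rose further, from 58.0 and 54.0 to 495.1 and 414.9 (adjusted p = 0.0018), and was not refitted without single arrays. The call of the first probe set was lost without any 1 array (adjusted p from 0.051 to 0.097), and that of Dcn without TGFb2 replicate 1 (0.097) or TGFb2 replicate 2 (0.095). Both adipocyte markers on the array, Adipoq and Retn, lay below the filter, with summed signals of 19.0 and 12.0 with PBS and 15.4 and 15.2 with TGFb2. The sums of the B cell, T cell, mast cell and dendritic cell markers overlapped between the groups and 0 of these markers passed. Those of 3 eosinophil markers were 10.6 and 8.5 with PBS and 28.2 and 15.4 with TGFb2, all below the filter. Endothelial markers summed to 51.6 and 95.2 with PBS and 153.6 and 94.6 with TGFb2, and the groups overlapped. Neither of the 2 tested endothelial markers passed in limma, and Cdh5, Tie1 and Tek lay below the filter. The part of endothelial cells in the Mef2c difference was not tested.

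**Figure D4:**
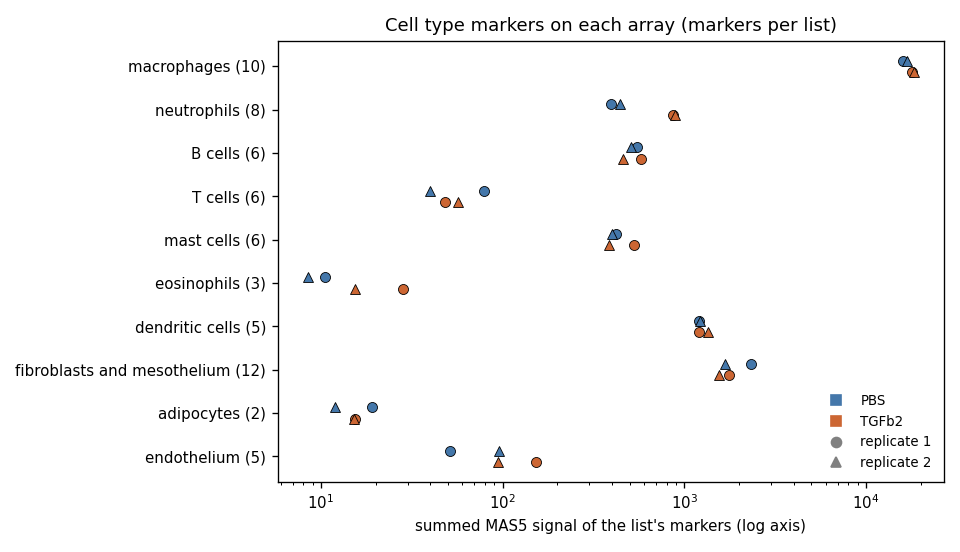
Summed MAS5 signal (log axis) of the markers of each cell type on each array, with the number of markers in brackets; circles are replicate 1 and triangles replicate 2. Macrophage markers sum to 15946 and 16795 with PBS and 17851 and 18286 with TGFb2. The neutrophil sums are higher on both TGFb2 arrays, mostly through S100a8.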

How the data were processed

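Biotin-labelled cRNA of 4 samples was hybridised to Affymetrix arrays. The authors deposited 1 linear intensity per probe set and array, computed with MAS5 per the submitters' processing notes (version not given in the sources used here). Deposited intensities ran from 0.1 to 15281 with equal 2% trimmed means (150.1), so they were not rescaled. Detection calls were not used here. No scan date was at hand, so batches were not examined.

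Signals were taken to log2(signal + 15.0), 10% of the trimmed mean, which understates changes of dim genes. Of 12422 non-control probe sets, 7453 at or above the 40th percentile of mean signal (25.1) were tested with limma 3.58.1 in R 4.3.3 (lmFit, eBayes with intensity trend, 2 residual and 5.60 prior degrees of freedom, two-sided, Benjamini-Hochberg over all tested, threshold 0.05). The script was tested on simulated data. Of the non-control probe sets 10833 carried 1 symbol, 396 several and 1193 none; only the first kind was named. Symbols were looked up by gene ID in the GRCm38.p6 table (10817 found, 0 changed).

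The members, the 27 gene lists, the motifs and the rule for named genes were chosen with earlier results of these data known. The rule took every member probe set, genes past the threshold in each list or otherwise the largest difference, and the 3 genes nearest in pattern to the members called, or otherwise to the 2 largest differences. Further genes were named after their values were seen: Rxra, Nr1h3, Lpl, Acadl, Cpt1a, Pdk4, Olr1, Cidec, Adgre1, Cd68, Csf1r, Itgam, Mertk, Msr1 and Mrc1. So were Camp, Elane, Lcn2 and the markers below the filter. Gene lists are described by counts and medians, with no set test. Alternatives varied the pseudocount, normalization, filter, variance model, replicate block, probe sets per gene and arrays.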

Additional observations from a re-analysis of the deposited data

How the results depend on the processing

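With 2 arrays per group, every count depended on the settings, and the cause was not tested. Probe sets past an adjusted p of 0.05 in limma numbered 87, against 56 without a pseudocount, 6 without the filter on dim probe sets and 13 without the intensity trend, and 11 to 50 when 1 array was left out (which assumes that a single array scatters as much as the intact group). Genes of the lists past it numbered 7, against 0 without the filter, 0 without the trend and 0 to 4 with 1 array left out. The labels give both groups replicate numbers 1 and 2. Deviations of same-numbered arrays correlated at 0.14, but 2 pairs do not establish a pairing. With the replicate block, 325 probe sets, 20 list genes and 1 member passed. That member was Cebpa, with the same log2 difference of 0.94 (adjusted p = 0.000196, against 0.062 to 0.27 over its other 11 alternatives). Hp (adjusted p = 8.0e-05), Fcgr1 (0.0019), Arg1 (0.0023) and Il4ra (0.012) also passed with the block.

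Cebpa, Irf8, Pparg and Mef2c kept their direction under each alternative that tested them. For most alternatives this was fixed in advance. Leaving out 1 array cannot reverse groups without overlap, and the filter, trend and block settings leave the difference unchanged. Members with overlapping groups changed sign when 1 array was left out, with log2 differences from -0.22 to 0.013 for Spi1, -0.0062 to 0.41 for Cebpb, -0.071 to 0.13 for Cebpd, -0.20 to 0.43 for Maf and -0.34 to 0.24 for Klf4. So did Vdr (-0.95 to 0.027), Cd4 (-0.76 to 0.31) and Flt3 (-0.37 to 0.50), which did not pass. Maf and Mef2c were not tested with the filter at the 60th percentile. Of 323 list medians under alternatives, 283 kept their sign. Detection calls were not used, so whether dim probe sets such as those of Maf and Mef2c exceed background is unknown.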
